A study of Mus musculus with 3 samples.

Results

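Among spatial transcriptomes of mouse thymus, 537 of 56744 tissue squares carried transcripts of genes that are best known from airway and gut epithelium. The squares, called bins here, were 27 µm wide and can each hold several cells. Bins entered when they had 300 genes or more and no more than 30% of UMIs from mitochondrial genes, a UMI being the molecular tag that counts each transcript once. A kept bin was a member when at least 3 of its UMIs and at least 0.3% of its UMIs came from 9 rule genes, *Gp2*, *Reg3g*, *Bpifa1*, *Scgb3a1*, *Cyp2f2*, *Clca3a2*, *Wfdc2*, *Saa1* and *Saa3*. The levels of these 9 genes therefore chose the members, and their high values in members are a description and not a finding. The data are 3 thymus sections of female C57BL/6 mice, each 1 animal and 1 slide. Sections KO1134 (17 weeks of age) and KO1308 (21 weeks) are from mice lacking *Trp53* in all cells (*Trp53*-/-, KO), which the study describes as pre-neoplastic, and section WT1101 (17 weeks) is from a *Trp53*+/+ (WT) mouse. Names and ages follow the labels, but the study's description of a section named KO1308 resembles the depth of the files labelled KO1134, so the names of both KO sections may be interchanged. The sections were cut from frozen tissue, and the permeabilisation time on the slide differed between genotypes. With 1 WT section, KO and WT values stand side by side and no test between genotypes was made. Members numbered 56 of 12044 kept bins in KO1134, 421 of 17425 in KO1308 and 60 of 27275 in WT1101.

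The thymic medulla is the inner zone of the organ, where maturing T cells are screened against the body's own proteins. Medullary thymic epithelial cells display genes of many peripheral tissues, partly through the regulator *Aire*, and some of them take on features of specialised cells such as microfold, tuft, ciliated, secretory or keratinised cells. Microfold cells are gut epithelial cells that take up particles through the receptor *Gp2*. *Reg3g* encodes a secreted antibacterial lectin of gut epithelium. *Bpifa1*, *Scgb3a1*, *Cyp2f2*, *Clca3a2* and *Wfdc2* are genes of airway and other mucosal secretory epithelium, encoding in order a lipid-binding secreted protein, a secretoglobin, a cytochrome P450, a protein of the calcium-activated chloride channel regulator family and a whey acidic protein domain inhibitor. *Saa1* and *Saa3* encode serum amyloid A proteins of the acute phase response.

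Each of the 9 genes lies at its own place in the genome build GRCm38, and the *Saa* genes are neighbours. *Gp2* lies on chromosome 7 from 119442537 to 119459285, *Cyp2f2* on the same chromosome from 27119909 to 27133660, *Saa3* from 46711998 to 46715700 and *Saa1* from 46740497 to 46742980. *Bpifa1* and *Wfdc2* lie on chromosome 2, from 154142880 to 154149219 and from 164562413 to 164568510. *Reg3g* lies on chromosome 6 from 78466269 to 78468872, *Scgb3a1* on chromosome 11 from 49663610 to 49665118 and *Clca3a2* on chromosome 3 from 144796559 to 144819494. *Reg3g*, *Saa1*, *Saa3* and *Clca3a2* have close copies in their families, so reads could have been split between copies.

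Since members were chosen by genes from 4 groups (microfold, *Reg3*, airway and serum amyloid), 1 promoter of each group is shown. Each is the 250 bases before the gene's RefSeq start, read 5′ to 3′ on the gene's own strand from RefSeq for GRCm38.p6. They lie at chr7:119459273-119459522 (minus strand), chr6:78468875-78469124 (minus), chr2:154142630-154142879 (plus) and chr7:46715677-46715926 (minus) in the order printed. Capitals mark the letters TATAAA of a TATA box or TTGCNNAA of a C/EBP site on either strand.
Gp2: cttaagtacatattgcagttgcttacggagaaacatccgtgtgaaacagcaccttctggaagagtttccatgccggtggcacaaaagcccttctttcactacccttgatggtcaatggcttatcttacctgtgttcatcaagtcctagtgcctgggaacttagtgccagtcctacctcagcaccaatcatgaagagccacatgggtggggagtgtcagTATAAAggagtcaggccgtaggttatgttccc
Reg3g: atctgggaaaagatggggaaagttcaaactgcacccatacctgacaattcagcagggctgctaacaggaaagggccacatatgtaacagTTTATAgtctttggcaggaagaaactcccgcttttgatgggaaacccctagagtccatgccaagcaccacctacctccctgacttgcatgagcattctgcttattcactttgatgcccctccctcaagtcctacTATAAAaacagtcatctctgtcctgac
Bpifa1: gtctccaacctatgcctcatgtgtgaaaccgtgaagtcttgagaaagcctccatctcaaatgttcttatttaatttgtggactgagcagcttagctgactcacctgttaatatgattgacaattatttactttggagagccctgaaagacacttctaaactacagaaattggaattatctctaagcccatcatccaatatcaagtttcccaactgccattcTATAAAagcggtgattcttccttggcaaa
Saa3: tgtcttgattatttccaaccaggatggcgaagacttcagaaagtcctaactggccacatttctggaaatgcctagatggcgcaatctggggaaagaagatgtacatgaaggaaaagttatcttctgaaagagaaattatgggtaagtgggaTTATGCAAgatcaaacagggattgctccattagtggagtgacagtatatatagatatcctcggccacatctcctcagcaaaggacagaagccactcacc

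All 9 genes had a RefSeq promoter. In windows that also took in the bases just after the start (300 bases in all), TATAAA was found on either strand in 3 of the 9, those of *Gp2*, *Reg3g* (on both strands) and *Bpifa1*, and in 13.6% of all 32851 promoters. The C/EBP letters were found in *Saa1*, *Saa3* and *Clca3a2* and in 10.8% of all promoters. The letters GAGGAAG of an ETS site, the kind that *Spib* binds, were found in *Gp2*, just after its start and so outside the printed window, and in *Scgb3a1*, with 13.6% of all promoters holding them. NF-kB letters (GGG, any 2 bases, then TTTCC) were found in *Clca3a2* only, and forkhead letters (TGTTTNC) in *Scgb3a1* only, against 1.63% and 20.5% of all promoters. No motif overlapped another within a printed sequence, and a match is a description of these letters only.

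The deposited files held 31237062 UMIs for KO1134, 21089885 for KO1308 and 41581477 for WT1101. Depth per bin differed between the sections, with a median of 2034 UMIs in members of KO1134, 1097 in KO1308 and 1022 in WT1101, against 2643, 826 and 1351 in the other kept bins. Members were therefore deeper than other bins in KO1308 and shallower in KO1134 and WT1101. The targeted gene *Trp53* stood at 17.0, 25.2 and 79.9 CPM (counts scaled to a common total of UMIs) in the other kept bins of KO1134, KO1308 and WT1101, lower in both KO sections as labelled. The 4 markers of the label, *Gp2*, *Reg3g*, *Scgb3a1* and *Saa1*, were all found in members of both KO sections, but *Scgb3a1* had 0 UMIs in the 60 WT members, which allows up to 44.2 CPM at a floor of 3 UMIs. The label calls the bins medullary, and the 11 medullary epithelial genes tested here bear on this without having chosen the members. Their summed level was 3262 CPM in members and 808 CPM in other bins of KO1134, 2332 and 1222 CPM in KO1308, and 2167 and 624 CPM in WT1101. Members thus stood above the section at large. Cortical thymocyte genes stood lower in members, at 259, 979 and 840 CPM against 778, 1895 and 4011 CPM. Other lists were less even. Mature thymocyte genes had 1052, 833 and 1386 CPM in members against 1297, 777 and 458 CPM, lower in KO1134. Cortical epithelial genes had 1101, 2063 and 1179 CPM against 1907, 2066 and 2160 CPM, alike in KO1308. Bins that were not members and were chosen for 9 of these genes stood at 3771, 4477 and 4144 CPM, a level that their choice set. In all these sums, fewer cells of a type and less RNA per cell cannot be told apart.

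Members made up 0.465% of kept bins in KO1134 (95% exact binomial interval 0.351 to 0.603), 2.42% in KO1308 (2.19 to 2.66) and 0.22% in WT1101 (0.168 to 0.283). The intervals cover counting error only and do not overlap, and the KO sections differed from each other more than KO1134 differed from WT1101. Thinning to 500 UMIs left out the 171, 3811 and 2925 bins with fewer, and the shares of the remaining bins were 0.236%, 1.68% and 0.148%, in the same order. At 500 UMIs a bin, the limit of 3 UMIs is stricter than the limit of 0.3%, so the rule was not the same. The level of the 9 genes in a member ran from the threshold to a few percent of its UMIs. Members held a median of 9, 6 and 5 UMIs of the 9 genes in KO1134, KO1308 and WT1101 and a maximum of 30, 111 and 18. Exactly 3 UMIs were found in 2, 102 and 11 members. Just inside the limit the lowest members had 0.301%, 0.301% and 0.303% of their UMIs in the 9 genes, and just outside it the highest bins with 3 or more UMIs had 0.296% in KO1134 and 0.298% in KO1308, with WT1101 just under the limit. Such bins, with enough UMIs but too small a share, numbered 193, 211 and 39, and bins with 2 UMIs numbered 259, 612 and 125.

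Members lay further from the tissue edge than other bins and next to each other. The median distance to the nearest edge of the kept tissue was 699 µm for members and 330 µm for other bins in KO1134, 302 and 164 µm in KO1308, and 1154 and 648 µm in WT1101. None of the members of KO1134 or WT1101 lay within 100 µm of the edge, where 17.2% and 9.22% of the other bins lay, and in KO1308 the shares were 12.8% and 36.2%. A member touched another member in 64.3%, 78.4% and 55.0% of cases in KO1134, KO1308 and WT1101. Of the kept bins that adjoined a member, 36 of 324 (11.1%), 330 of 1541 (21.4%) and 33 of 327 (10.1%) were members too, far above the shares of all kept bins. The members formed 32, 126 and 40 separate patches, of which 20, 91 and 27 were single bins. The largest patches were of 5 bins in KO1134 and 4 in WT1101, whereas KO1308 had 1 patch of 156 bins that measured 567 by 432 µm. The tissue of KO1308 lay in separate pieces, and 330 members were in a piece of 8392 bins (3.93%), 89 in a piece of 7209 bins (1.24%) and 0 in a piece of 536 bins.

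**Figure D1:**
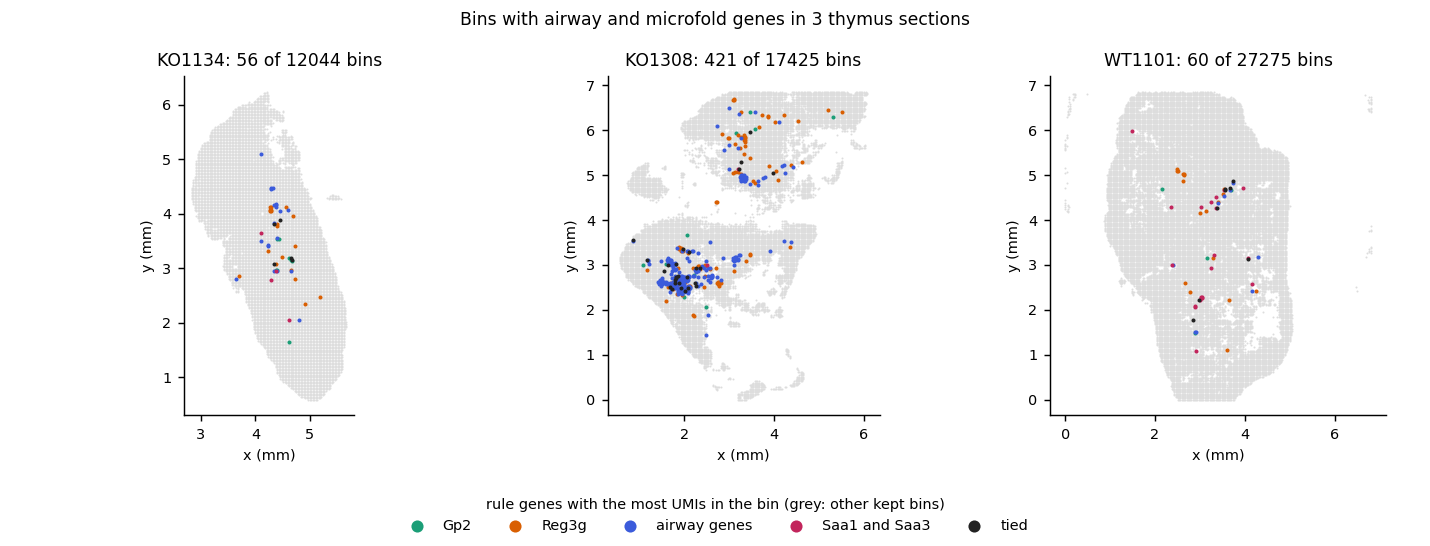
Position of member bins in the 3 sections, with x and y in mm on the slide and 1 point per bin, coloured by the rule genes with the most UMIs in that bin (grey, other kept bins). Members of KO1134 and WT1101 are scattered along the inside of the tissue, and in KO1308 1 patch holds 156 of them and 265 lie outside it.

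The rule genes split the members into groups with different makeup in each section. In KO1134 the airway genes had the most UMIs in 20 of 56 members (35.7%), *Reg3g* in 19 (33.9%), *Gp2* in 8 (14.3%) and the *Saa* genes in 4 (7.14%), with 5 ties. In KO1308 the airway genes led in 271 of 421 members (64.4%, 95% exact binomial interval 59.6 to 69.0), *Reg3g* in 107 (25.4%), *Gp2* in 14 (3.33%) and the *Saa* genes in 2 (0.475%), with 27 ties. In WT1101 the *Saa* genes led in 21 of 60 members (35.0%, 23.1 to 48.4), *Reg3g* in 18 (30.0%), the airway genes in 9 (15.0%) and *Gp2* in 4 (6.67%), with 8 ties. *Reg3g* thus led in a similar share of members in each section, while the airway and *Saa* shares stood in opposite order in KO1308 and WT1101. Neighbouring bins are not independent, so these intervals are narrower than the spread between animals could be. Only 9, 43 and 15 members of KO1134, KO1308 and WT1101 held UMIs of a single rule gene, and most held 2 or 3 of them.

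**Figure D2:**
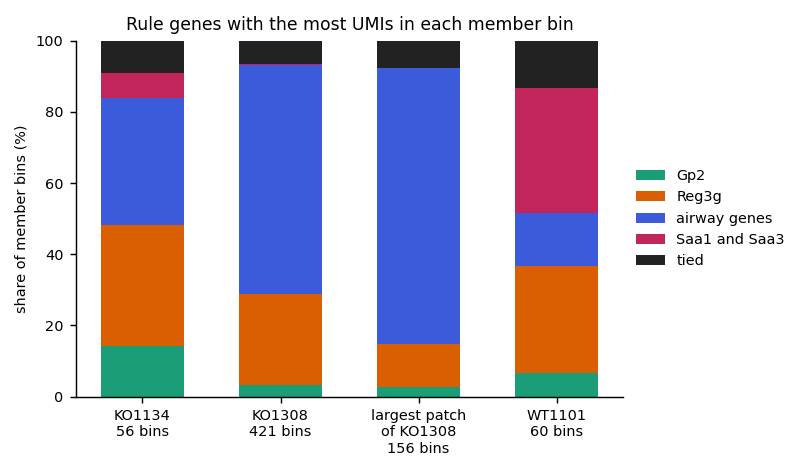
Share of member bins (%) by the rule genes with the most UMIs in the bin, for each section and for the largest patch of KO1308, with the number of bins under each bar. Airway genes led in 64.4% of members of KO1308 and in 77.6% of its largest patch, and *Saa* genes led in 35.0% of members of WT1101.

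The microfold receptor gene *Gp2* had 996 CPM in members of KO1134 (95% exact Poisson interval 827 to 1188), 603 CPM in KO1308 (539 to 673) and 354 CPM in WT1101 (227 to 526). It was found in 41.1%, 32.8% and 15.0% of members. The antibacterial lectin gene *Reg3g* was the most evenly spread rule gene, with 1465, 2088 and 2167 CPM and UMIs in 64.3%, 69.4% and 58.3% of members of KO1134, KO1308 and WT1101.

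Of the airway genes, *Bpifa1* had 1174 CPM in members of KO1134, 2721 CPM in KO1308 and 501 CPM in WT1101. *Wfdc2* had 502, 1481 and 339 CPM, and was found in 42.9%, 64.6% and 16.7% of members. *Scgb3a1* had 24.3 CPM from 3 UMIs in KO1134, 253 CPM from 134 UMIs in KO1308 and 0 UMIs in WT1101. *Cyp2f2* had 356, 291 and 206 CPM, and *Clca3a2* 146, 71.8 and 162 CPM, with neither gene at its highest in KO1308. The acute phase genes stood highest in the WT section, *Saa3* at 219, 41.6 and 1813 CPM and *Saa1* at 162, 49.1 and 516 CPM.

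Much of the transcript of the 9 genes lay outside the members. Over all kept bins, members of KO1134, KO1308 and WT1101 held 21.7%, 49.1% and 27.1% of the UMIs of the 9 genes. *Clca3a2* had 5.56%, 12.7% and 5.88% of its UMIs in members. *Scgb3a1* had 3 of its 30, 134 of its 191 (70.2%) and 0 of its 8 UMIs there. The strongest single bin of KO1134 held 29 UMIs of *Bpifa1* and 1 of *Cyp2f2* among 1560 UMIs. The strongest of KO1308 held 93 of *Bpifa1*, 9 of *Wfdc2*, 8 of *Reg3g* and 1 of *Clca3a2* among 2935. In WT1101 a bin of 2253 UMIs held 12 of *Reg3g*, 5 of *Saa1* and 1 of *Cyp2f2*.

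Each rule gene was then examined in bins that it had not helped to choose, by calling members from the other 8 genes at the same limits and leaving those 8 genes out of the fit. UMIs were summed per section and class and compared with edgeR's quasi-likelihood test with section as a block. All 9 genes were higher by edgeR in the bins chosen by the other 8, after Benjamini-Hochberg adjustment over all genes of each fit, and DESeq2 called 7 of them, without *Saa1* and *Saa3*. The 9 genes were picked as a set with earlier results of these data known, so these p-values are no independent support for the set. The other kept bins were not matched for medullary tissue, so the differences also hold those between the medulla and the rest of the section. *Gp2* had 494, 519 and 126 CPM in such bins of KO1134, KO1308 and WT1101 and 8.56, 20.3 and 1.82 CPM in all other kept bins. Its log2 fold change was 5.14 ± 0.34 (SE, 3 sections; edgeR adjusted p = 9.4e-48), in a fit where 1.58% of all genes tested were higher. Such small p-values rest on the spread shared across genes, since 3 sections leave few degrees of freedom. *Reg3g* had 439, 1740 and 1191 CPM against 26.3, 101 and 8.77 CPM, a log2 fold change of 4.68 ± 0.36 (1.27% of genes higher). *Bpifa1* had 189, 2005 and 245 CPM against 14.0, 91.7 and 1.85 CPM, a log2 fold change of 4.55 ± 0.33 (1.78% of genes higher). *Wfdc2* had 373, 1288 and 115 CPM against 8.99, 61.9 and 4.34 CPM, a log2 fold change of 4.58 ± 0.31 (1.74%).

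*Cyp2f2* had 266, 208 and 155 CPM against 5.77, 17.3 and 2.98 CPM, a log2 fold change of 4.46 ± 0.34 (1.88% of genes higher). *Clca3a2* had the smallest difference, 2.43 ± 0.46 on the log2 scale (edgeR adjusted p = 2.6e-05, with 2.1% of genes higher), from 103, 37.1 and 91.7 CPM against 10.1, 15.6 and 4.46 CPM. *Scgb3a1* had 24.3, 246 and 0 CPM against 0.870, 3.46 and 0.197 CPM, a log2 fold change of 5.67 ± 0.52 (1.93% of genes higher). This value is carried by KO1308, and without that section its adjusted p was 0.53 in edgeR. *Saa1* had 35.3, 32.8 and 434 CPM against 4.09, 7.20 and 2.44 CPM, a log2 fold change of 4.12 ± 0.50 (1.84%; DESeq2 adjusted p = 0.061). *Saa3* had 125, 17.3 and 819 CPM against 7.38, 8.48 and 6.65 CPM, a log2 fold change of 3.97 ± 0.42 (1.81%; DESeq2 adjusted p = 0.073). In KO1308 the intervals of *Saa3* in the chosen bins (7.92 to 32.9 CPM) and in other bins (7.18 to 9.94 CPM) overlapped, so its difference was seen in KO1134 and WT1101. In the fits without KO1134, *Clca3a2* did not pass the threshold (adjusted p = 0.12).

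**Figure D3:**
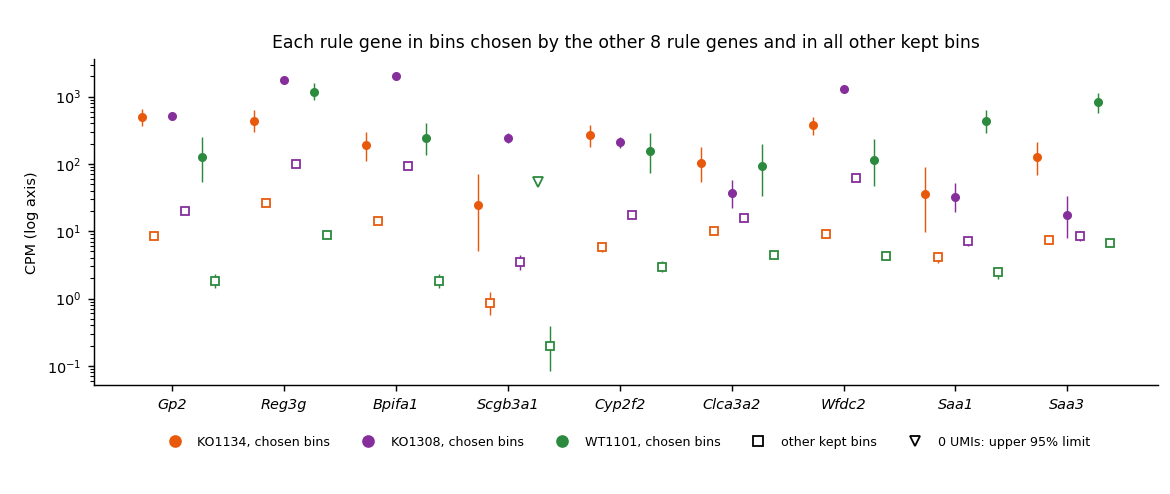
CPM (log axis) of each rule gene in bins chosen by the other 8 rule genes (filled circles) and in all other kept bins (open squares), 1 colour per section, with exact Poisson 95% intervals and the upper limit where no UMI was found. In every section the chosen bins stand above the other bins for each gene with UMIs in both classes, and for *Saa3* in KO1308 the intervals overlap.

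Across genes outside the rule, members were compared with all other kept bins of their own section. Of 17236 genes tested, 330 (1.91%) were higher in members and 271 (1.57%) lower by edgeR's quasi-likelihood test at an adjusted p of 0.05, and DESeq2 gave 308 and 55. Scaling factors were larger for member sums than for the others, by a mean of 0.27 on the log2 scale with TMM and 0.12 with DESeq2. This lowered the log2 fold changes of all genes by about as much. The median over all genes was -0.17 in edgeR. Genes at 0 UMIs in a class enter the fit with a prior count, so the fold changes of rare genes are estimates and not bounds. The filter on low counts works on CPM, and member sums are small, so a rare gene could enter through few UMIs in members. Rare genes without UMIs in members dropped out more easily. For lists of rare genes, the share called higher and the list median can therefore be raised by the filter.

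*Agr2*, a protein-folding gene of mucus-producing cells, had 32.4, 52.9 and 29.5 CPM in members of KO1134, KO1308 and WT1101 and 0.516, 1.62 and 0.0986 CPM in other bins. Its log2 fold change was 5.55 ± 0.76 (edgeR adjusted p = 1.8e-10), from 4, 28 and 2 UMIs in members. The serpin gene *Serpinb11* had 97.1, 206 and 14.7 CPM against 0.838, 5.97 and 0.246 CPM, a log2 fold change of 5.53 ± 0.46. *Pigr*, the receptor that carries IgA and IgM across epithelium, had 130, 153 and 73.7 CPM against 1.90, 5.92 and 0.936 CPM, a log2 fold change of 5.21 ± 0.43. The 3 member values of each gene lay above the 3 values of the other bins, without overlap.

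*Msln*, encoding the surface protein mesothelin, had more transcripts than the others, with 397, 263 and 162 CPM in members and 3.87, 25.4 and 5.94 CPM elsewhere. Its log2 fold change was 4.59 ± 0.32 (edgeR adjusted p = 2.0e-43). *Lcn2*, encoding an iron-sequestering antibacterial protein, had 32.4, 96.4 and 73.7 CPM against 1.10, 4.52 and 2.24 CPM, a log2 fold change of 4.47 ± 0.56. The mucosal chemokine gene *Cxcl17* rose by 5.14 ± 0.74, the surfactant lectin gene *Sftpd* by 4.97 ± 0.78 and the forkhead factor gene *Foxa1* by 4.36 ± 0.61 on the log2 scale. The others named by the rule for the largest differences were the transporter gene *Slco1a5* (4.74 ± 0.59), the GABA receptor subunit gene *Gabrp* (4.67 ± 0.65), *Gm15318* (4.29 ± 0.77) and the monocarboxylate transporter family gene *Slc16a11* (4.15 ± 0.51). *Agr2*, *Sftpd* and *Gm15318* did not pass without KO1308, the section with most members.

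Of the 12 listed microfold genes, 11 were tested and 5 were higher in members, with a list median of 1.45 on the log2 scale. *Ccl20*, the chemokine gene of follicle-associated epithelium, had 105, 41.6 and 280 CPM in members and 6.45, 14.8 and 7.07 CPM in other bins, a log2 fold change of 3.21 ± 0.40. *Pglyrp1*, encoding a peptidoglycan-binding protein, had 89.0, 106 and 147 CPM against 13.9, 13.8 and 4.68 CPM (3.10 ± 0.38). *Ccl9* rose by 2.93 ± 0.55 (it did not pass without KO1308), *Scg5* by 2.46 ± 0.68 and *Spib*, the ETS factor gene needed for microfold cells, by 1.35 ± 0.38. *Spib* had 130, 49.1 and 73.7 CPM against 33.3, 30.8 and 7.37 CPM and did not pass without KO1134 or without WT1101, and *Scg5*, at 0 UMIs in WT members, did not pass without KO1134 or without KO1308. *Sox8*, another factor of microfold cells, had 0 UMIs in members of all 3 sections and was not tested.

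The airway secretory genes outside the rule were rarer, and 9 of 13 were tested. Of these, 6 were higher, and the list median was 3.21. The filter favoured rare genes with UMIs in members, so this count and median are partly set by which genes were tested. *Scgb3a2*, a secretoglobin of the lung's club cells, had 146 and 174 CPM in members of KO1134 and KO1308 against 0.870 and 3.18 CPM, with 0 UMIs in members of WT1101, and a log2 fold change of 6.22 ± 0.48. *Cbr2*, a carbonyl reductase gene of lung, had 235, 287 and 118 CPM against 117, 89.6 and 88.8 CPM (0.97 ± 0.28), and did not pass without KO1134 or without KO1308. The club cell secretoglobin gene *Scgb1a1* was carried by WT1101, with 0, 2 and 5 UMIs in members (3.21 ± 0.94), and *Muc5ac* by 1, 3 and 1 UMIs (4.03 ± 1.09). Neither passed without KO1308 or without WT1101. *Muc5b*, an airway mucin gene, had 1, 41 and 0 UMIs in members and was not among the genes tested.

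Of the mucosal defence genes, 7 of 11 tested were higher, with a list median of 1.84. Besides *Pigr*, *Cxcl17* and *Lcn2* these were *Reg3b*, *Ltf*, *Lyz1* and *S100a9*. *Reg3b*, the close relative of *Reg3g*, had 0, 37.8 and 162 CPM in members against 0.709, 3.52 and 0.444 CPM (4.82 ± 0.69), and did not pass without WT1101. *Ltf*, encoding lactoferrin, was found in members of KO1308 only, with 45 UMIs or 85.0 CPM against 10.4 CPM (2.75 ± 0.66). The lysozyme gene *Lyz1* had 227, 41.6 and 73.7 CPM against 71.1, 20.8 and 7.86 CPM (1.39 ± 0.35), and did not pass without KO1134. *Slpi*, a secreted protease inhibitor gene, had 97.1, 187 and 29.5 CPM in members against 148, 198 and 14.0 CPM and did not pass (edgeR adjusted p = 0.74). *S100a9* (1.84 ± 0.54) did not pass without any 1 of the sections.

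Of the ciliated cell genes, 4 of 10 tested were higher, with a list median of 2.17. They were *Dynlrb2*, encoding a dynein light chain (3.54 ± 0.68), *Tmem212* (3.59 ± 0.82), the axonemal dynein gene *Dnah5* (2.62 ± 0.72) and *Tppp3* (1.60 ± 0.47). *Dynlrb2* had 32.4, 56.7 and 0 CPM in members against 1.58, 4.69 and 0.887 CPM. The summed ciliated list stood at 162, 312 and 44.2 CPM in members of KO1134, KO1308 and WT1101, where only *Dnah5* and *Tppp3* had UMIs in WT members. *Dnah5*, *Tmem212* and *Tppp3* did not pass once the largest patch of KO1308 was left out. None of the 4 passed without KO1134, and of them *Tmem212* alone could not be tested without KO1308, where the other 3 did not pass. *Foxj1*, the master factor gene of ciliated cells, had 1, 11 and 0 UMIs in members.

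Other specialised epithelial lists had few called genes. Tuft cell genes had 0 of 7 tested called, although the list median was 1.44, and *Pou2f3*, the tuft cell factor gene, had 80.9, 73.7 and 88.4 CPM in members against 55.1, 69.0 and 57.0 CPM. Of these 7 genes, 4 had an unadjusted p under 0.05 in edgeR, against 2295 of all 17236 genes tested, and DESeq2 called 1. Of neuroendocrine genes 1 of 5 was higher, the calcitonin-related gene *Calcb* (2.17 ± 0.48), and of keratinised cell genes 2 of 10, *Spink5* and *Grhl1*. *Spink5*, encoding a protease inhibitor of stratified epithelium, had 72.8, 104 and 73.7 CPM in members against 1.58, 12.05 and 0.665 CPM (4.13 ± 0.49). The gut and liver list had 1 of 5 higher, the mucin gene *Muc13* (2.27 ± 0.58), which did not pass without any 1 of the sections. *Calcb* did not pass without KO1134, and *Grhl1* did not without any 1 of the sections. Skeletal muscle had 0 of 5, alveolar epithelium 0 of 2 and thyroid and parathyroid 0 of 1 called by edgeR, with 1, 0 and 1 genes at an unadjusted p under 0.05 and 0 by DESeq2.

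**Figure D4:**
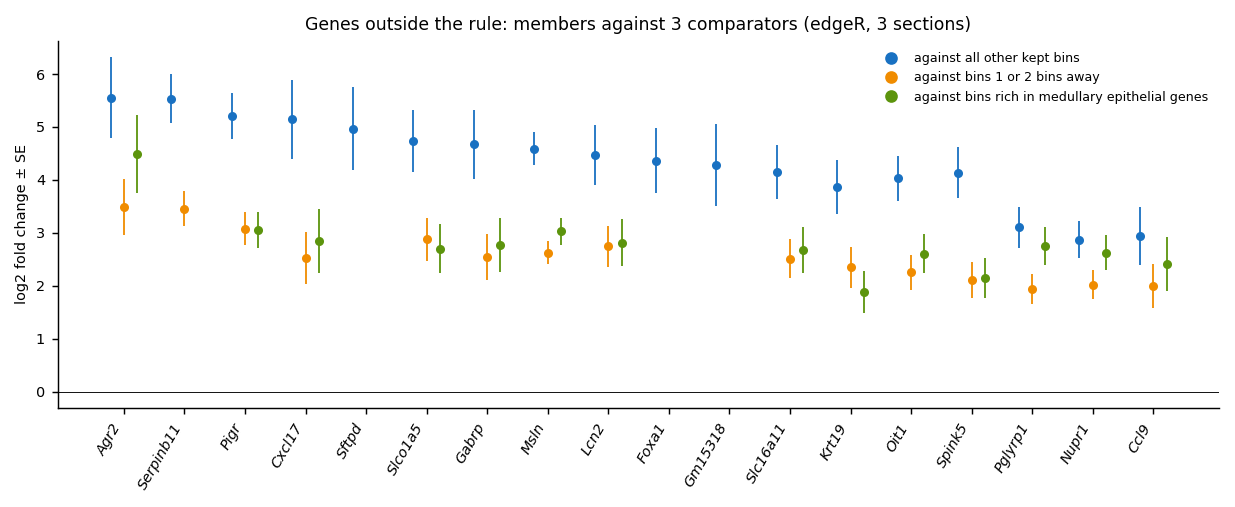
Log2 fold change with SE (edgeR, 3 sections) of 18 genes outside the rule, in members against all other kept bins, against non-members 1 or 2 bins away and against non-members rich in medullary epithelial genes. A missing point means that the gene was not tested there, as for *Sftpd*, *Foxa1* and *Gm15318* in the last 2 comparisons, and *Agr2* ranges from 5.55 against all other bins to 3.48 against near bins.

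The surroundings of the members also differed from the section at large. Medullary epithelial genes were higher for 8 of 11 tested, with a list median of 1.75. The claudin genes *Cldn3* (3.89 ± 0.71), *Cldn7* (3.61 ± 0.42) and *Cldn4* (2.76 ± 0.45), whose proteins seal epithelial junctions, differed most. *Epcam*, encoding an epithelial adhesion molecule, had 316, 187 and 295 CPM in members against 41.2, 54.4 and 24.7 CPM (2.40 ± 0.28). The keratin genes *Krt14*, *Krt5* and *Krt17* rose by 1.75 ± 0.30, 1.69 ± 0.27 and 1.55 ± 0.27, and *Fezf2*, a factor gene of medullary epithelium, by 1.93 ± 0.48. *Aire* had 64.8, 35.9 and 118 CPM in members against 18.9, 37.1 and 9.44 CPM and did not pass (edgeR adjusted p = 0.15), and its levels in KO1308 were alike. *Cldn3* did not pass without KO1134 or without KO1308, and *Krt14*, *Krt17* and *Fezf2* did not pass without KO1134.

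MHC class II genes, which present antigen on medullary epithelial cells, dendritic cells and B cells, were higher for 4 of 7 tested. *Cd74*, the invariant chain gene, had 4654, 3101 and 3066 CPM in members against 2046, 1877 and 756 CPM (1.04 ± 0.26). Interferon-response genes were higher for 5 of 9 tested, *Isg15*, *Irf7*, *Ifit1*, *Ifit3* and *Cxcl10*. *Isg15* had 235, 170 and 251 CPM against 118, 67.6 and 47.9 CPM (1.25 ± 0.28). *Isg15* and *Irf7* passed whichever section was left out, whereas *Ifit1*, *Ifit3* and *Cxcl10* passed neither without KO1134 nor without KO1308, and *Cxcl10* not without WT1101 either. Of dendritic cell genes 1 of 9 was higher, the chemokine gene *Ccl22* (1.70 ± 0.44), which did not pass without KO1134 or without WT1101. None of the 9 genes of the RANK and NF-kB pathway, which drives medullary epithelial and microfold differentiation, passed the test, although its summed level was 737, 569 and 708 CPM in members and 386, 412 and 349 CPM elsewhere. Of the 9 genes, 4 had an unadjusted p under 0.05 in edgeR, against 2295 of all 17236 genes tested, and DESeq2 called 0. No gene was called by edgeR or DESeq2 for mature thymocytes (11 tested), B cells (8), macrophages (7), endothelium (7) or fibroblasts (8), where 3, 0, 0, 2 and 0 genes had an unadjusted p under 0.05 in edgeR. In simulated counts for this comparison, edgeR called 22% of 2-fold rises and 28% of falls to 0.5-fold. A list without calls here therefore does not show equal levels. *Cd74* did not pass without KO1134 or without WT1101, nor *H2-Ab1* without KO1134.

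Cortical thymocyte genes and genes of cycling cells were lower in members. Of 10 cortical thymocyte genes 7 were lower (DESeq2 called 5), with a list median of -1.59, among them *Dntt*, the terminal transferase gene, with 80.9, 293 and 192 CPM in members against 379, 559 and 1121 CPM (-1.93 ± 0.29). *Rag1*, a recombinase gene, had 8.09, 129 and 206 CPM against 30.9, 290 and 653 CPM (-1.60 ± 0.32). All 7 proliferation genes were lower by edgeR and 4 by DESeq2, from *Cdk1* (-1.02 ± 0.32) to *Ccna2* (-1.55 ± 0.36). *Cdk1*, *Mki67*, *Pcna* and *Top2a* did not pass without KO1134, nor *Cdk1*, *Top2a* and *Ube2c* without WT1101. The summed list stood at 623, 1168 and 884 CPM in members against 1399, 1847 and 2822 CPM. Of 7 cortical epithelial genes 1 was lower by edgeR and 0 by DESeq2, the protease gene *Prss16* (-1.08 ± 0.29). The summed cortical epithelial list stood at 1101, 2063 and 1179 CPM in members against 1907, 2066 and 2160 CPM, so levels in KO1308 were alike. Of 6 plasma cell genes 2 were lower by edgeR and 1 by DESeq2, with *Igkc* at -1.10 ± 0.28 and *Iglc2* at -1.15 ± 0.29 in edgeR. Neither *Prss16* nor *Igkc* passed without KO1134 or without WT1101, nor *Iglc2* without KO1134. *Igkc* had 1473, 2440 and 251 CPM in members against 2682, 2749 and 960 CPM.

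Adipocyte genes were lower for all 5 tested by edgeR and for 2 by DESeq2. The summed list stood at 542, 202 and 118 CPM in members of KO1134, KO1308 and WT1101 and at 1150, 2287 and 107 CPM in other bins, so it was not lower in WT members. Of the list, only *Ucp1* was among the 8 genes named for the largest decreases. *Ucp1*, the heat-producing carrier of brown fat, had 1, 0 and 0 UMIs in members, and in KO1308 members were at least 25.6-fold lower than other bins (0 UMIs against 145 CPM, with the floor set at 3 UMIs per section). *Cidea*, a lipid droplet gene, was at least 14.8-fold lower in KO1308 by the same floor, and *Pdk4*, a kinase gene of fat oxidation with 0 UMIs in all members, at least 6.95-fold. *Ptger3* and *Hbb-bs* also had 0 UMIs in all members, and *Ptger3* was at least 2.39-fold lower in KO1308. *Cox8b* (-3.97 ± 0.48), *Cox7a1* (-4.03 ± 0.62) and *Gpd1* (-4.25 ± 0.58) were the other 3 of these 8. *Ptger3* kept its call under none of the 12 alternatives that tested it, and *Hbb-bs* under 5 of 12, losing it without any 1 of the sections. *Cox8b* passed whichever section was left out, and *Ucp1*, *Cidea*, *Pdk4*, *Cox7a1* and *Gpd1* did not pass without KO1308. In WT1101 *Ucp1* and *Cidea* stood at 0.0246 and 0.173 CPM in other bins, far below the other bins of KO1134 (40.6 and 45.0 CPM). The other adipocyte genes, *Cidec*, *Cfd*, *Adipoq* and *Fabp4*, did not pass without KO1308 either.

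To compare members with tissue of the same neighbourhood, non-member bins 1 or 2 bins away were used, 759, 2681 and 792 in KO1134, KO1308 and WT1101. Of 10209 genes tested, 88 (0.862%) were higher in members and 5 (0.049%) lower. *Agr2* had 4.201, 4.57 and 0 CPM in near bins, a log2 fold change of 3.48 ± 0.53. *Serpinb11* (3.46 ± 0.33), *Pigr* (3.08 ± 0.31), *Slco1a5* (2.88 ± 0.40), *Lcn2* (2.74 ± 0.39) and *Msln* (2.62 ± 0.22) followed. *Msln* had 24.2, 70.0 and 21.8 CPM in near bins, between its levels in members and in the section at large. The others named for size were *Gabrp*, *Cxcl17*, *Slc16a11*, the simple epithelial keratin gene *Krt19* (2.35 ± 0.39), *Oit1* (2.25 ± 0.33) and *Spink5* (2.11 ± 0.34).

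Against near bins, 3 of 8 microfold genes were higher, *Ccl9* (1.99 ± 0.42), *Pglyrp1* (1.93 ± 0.29) and *Ccl20* (1.29 ± 0.30), together with both airway secretory genes tested (*Agr2* and *Cbr2*) and 4 of 7 mucosal defence genes. *Ccl20* did not pass without KO1134 or without WT1101, neither *Ccl9* nor *Cbr2* without KO1308, nor the mucosal defence gene *Lyz1* without KO1134. Epithelial genes were higher for 5 of 10 tested, including *Cldn4* (1.96 ± 0.37), *Cldn7* (1.84 ± 0.31) and *Epcam* (1.30 ± 0.18, from 316, 187 and 295 CPM against 109, 93.2 and 84.4 CPM). The others were *Krt17* (0.61 ± 0.16), which did not pass without KO1134, and *Krt8* (0.60 ± 0.15), which did not pass without any 1 of the sections. Of 6 cortical epithelial genes tested, 1 was higher by edgeR, 0 were lower and DESeq2 called 0. It was the peptidase gene *Enpep*, which rose by 1.42 ± 0.35 but did not pass without KO1308. *Muc13* rose by 2.04 ± 0.51 but did not pass without any 1 of the sections. No cortical thymocyte (9 tested), MHC class II (7), interferon (9), proliferation (7) or RANK and NF-kB (9) gene was called by edgeR or DESeq2. In these lists 5, 0, 3, 2 and 1 genes had an unadjusted p under 0.05 in edgeR, against 697 of all 10209 genes tested. The named genes that were lower were the antibody gene *Ighg2c* (-0.96 ± 0.15), *Gm30211* (-0.50 ± 0.13) and the T cell receptor gene *Trbc1* (-0.47 ± 0.13). *Trbc1* had 623, 622 and 840 CPM in members against 929, 760 and 1273 CPM. Neither *Gm30211* nor *Trbc1* passed without KO1134 or without WT1101.

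Another comparator was non-member bins rich in medullary epithelial genes, chosen by at least 3 UMIs and 0.3% of UMIs of *Krt5*, *Krt14*, *Krt17*, *Krt8*, *Krt18*, *Epcam*, *Cldn3*, *Cldn4* and *Cldn7*, which were left out of this fit along with the 9 rule genes. They numbered 342, 1120 and 492 in KO1134, KO1308 and WT1101. Their cortical epithelial genes summed to 2480, 2374 and 2943 CPM, against 1101, 2063 and 1179 CPM in members and 1702, 2076 and 1205 CPM in near bins. All non-members stood at 1907, 2066 and 2160 CPM, below these bins in each section. Cortical thymocyte genes had 532, 1454 and 2706 CPM in these bins against 778, 1895 and 4011 CPM in all non-members. The name medullary epithelial bins thus refers only to how they were chosen, since they also held cortical epithelial transcripts. MHC class II genes summed to 9242, 6095 and 4337 CPM in these bins and to 10100, 6775 and 6913 CPM in near bins. Of 9428 genes tested, 86 (0.912%) were higher in members and 22 (0.233%) lower, and DESeq2 gave 39 and 2. The 3 comparisons share the member sums, so their values are not independent of each other. *Agr2* rose by 4.49 ± 0.73, *Pigr* by 3.06 ± 0.33, *Msln* by 3.03 ± 0.25, *Cxcl17* by 2.85 ± 0.61, *Lcn2* by 2.81 ± 0.44, *Gabrp* by 2.77 ± 0.51 and *Slco1a5* by 2.70 ± 0.46. *Pigr* had 13.0, 19.1 and 11.1 CPM in the medullary epithelial bins, against 130, 153 and 73.7 CPM in members. *Nupr1*, a stress-response gene, had 138, 108 and 147 CPM in members against 23.5, 23.5 and 7.40 CPM (2.62 ± 0.33).

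The microfold genes *Pglyrp1* (2.76 ± 0.36), *Ccl9* (2.41 ± 0.52) and *Ccl20* (2.10 ± 0.36) were again higher, 3 of 8 tested. MHC class II genes were higher for 3 of 7, *H2-Aa* (0.54 ± 0.14), *H2-Eb1* (0.54 ± 0.14) and *Cd74* (0.46 ± 0.12), but DESeq2 called 0 of the 7. None of the 3 passed without WT1101, *H2-Aa* and *H2-Eb1* did not without KO1308, *Cd74* did not without KO1134, and none did without the count filter. Of the interferon list, *Ifit1* (1.40 ± 0.33) was higher, with 105, 79.4 and 59.0 CPM against 62.6, 24.3 and 13.0 CPM, and did not pass without KO1308. Cortical epithelial genes were lower for 3 of 6 tested, the chemokine gene *Ccl25* (-0.72 ± 0.17), *Prss16* (-0.81 ± 0.20) and *Tbata* (-0.83 ± 0.17), as were *Dntt* (-1.07 ± 0.20) and *Rag1* (-0.98 ± 0.24). The comparator bins held more cortical transcripts than members, and the part of this in these decreases was not tested. *Tbata* had 259, 542 and 369 CPM in members against 815, 641 and 833 CPM, with the smallest gap in KO1308. Other genes named for their decrease were the cell cycle factor gene *E2f2* (-1.19 ± 0.30), *Sept6* (-1.05 ± 0.28), *Gm45062* (-0.91 ± 0.25) and the antibody genes *Ighm* (-0.96 ± 0.16), *Ighg2c* (-0.95 ± 0.18) and *Igha* (-0.86 ± 0.17). Of these lower genes, *Dntt* and *Ighm* passed whichever section was left out, and each other gene lost its call without at least 1 section, as did *Lcn2*, *Ccl9*, *Gabrp* and *Slco1a5* among the higher genes without KO1308. *Aire* did not pass here either (-0.33 ± 0.33, edgeR adjusted p = 0.93).

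The gene lists changed with distance from the members. The 9 rule genes summed to 5042, 7600 and 6059 CPM in members of KO1134, KO1308 and WT1101, to 608, 950 and 572 CPM in bins next to a member, and to 27.8, 71.0 and 14.7 CPM at 9 bins or more. Airway secretory genes stood at 502, 728 and 265 CPM in members, 203, 212 and 87.2 CPM at 1 bin and 112, 86.6 and 99.8 CPM at 9 bins or more. The intervals at 1 bin and far away lay apart in both KO sections and overlapped in WT1101. MHC class II genes stood at 11190, 7929 and 7680 CPM in members, 10750, 7098 and 7833 CPM at 1 bin and 4182, 2960 and 1679 CPM at 9 bins or more. Cortical thymocyte genes stood lowest in members, at 259, 979 and 840 CPM, and at 806, 2153 and 4193 CPM at 9 bins or more, although KO1134 was higher at 5 to 8 bins (879 CPM). The high level of rule genes in members was set by the rule, so the drop at the first bin is a description.

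**Figure D5:**
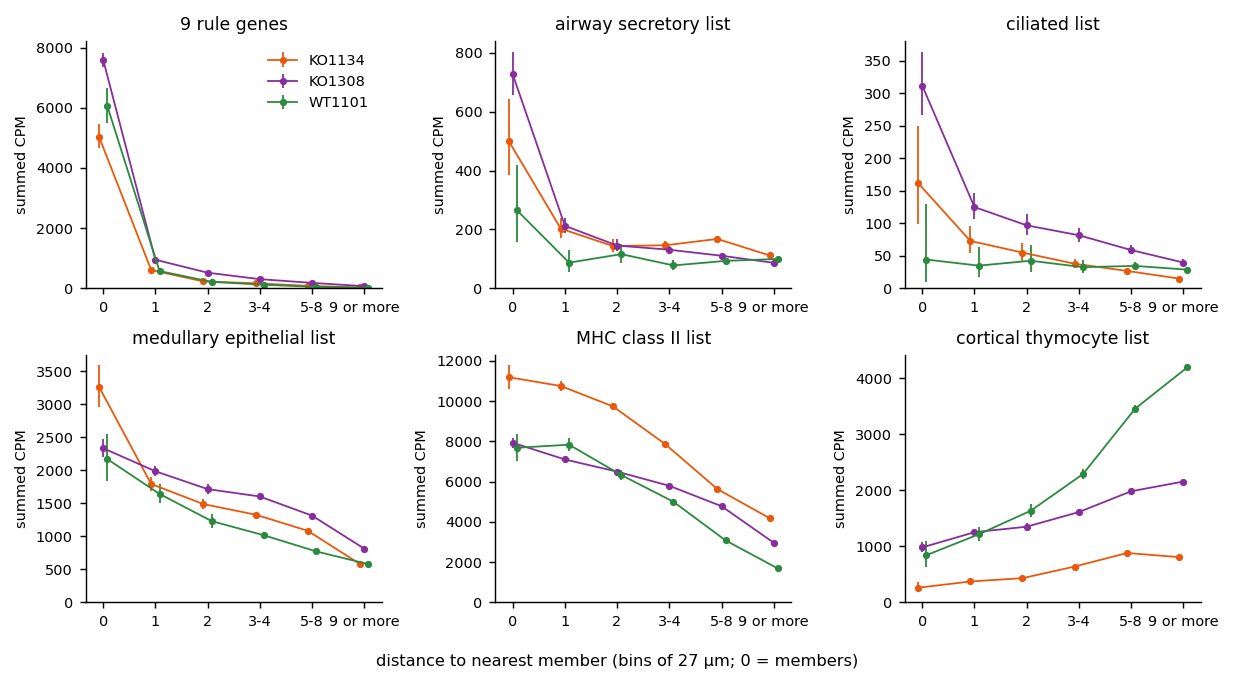
Summed CPM of 6 gene lists by distance to the nearest member, in bins of 27 µm with 0 for the members, 1 line per section and exact Poisson 95% intervals. Rule, airway and ciliated genes fall within 1 or 2 bins in the KO sections, whereas MHC class II genes are lowest at 9 bins or more and cortical thymocyte genes are lowest in members and reach 4193 CPM in WT1101.

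Members led by different rule genes were also compared with each other, each leading group against the mean of the other 3 within sections, over 310 genes. The fit used up to 12 sums, some of them from 2 or 4 bins. In *Reg3g*-led members 2 genes (0.645%) were higher, both by edgeR. *Ubd*, encoding a ubiquitin-like protein induced by inflammatory cytokines, had 1371, 806 and 1505 CPM in *Reg3g*-led members of KO1134, KO1308 and WT1101, 824, 521 and 1111 CPM in airway-led, 110, 190 and 444 CPM in *Gp2*-led, and 454, 2837 and 602 CPM in *Saa*-led members (1.48 ± 0.27, edgeR adjusted p = 0.00098). The antibody gene *Igha* had 5253, 6799 and 301 CPM in *Reg3g*-led members, 1873, 5958 and 0 CPM in airway-led, 1046, 4441 and 0 CPM in *Gp2*-led, and 2087, 8511 and 100.3 CPM in *Saa*-led members (1.04 ± 0.21, edgeR adjusted p = 0.0026). In KO1308 the *Saa*-led members, which were 2 bins with 4 UMIs of *Ubd* and 12 of *Igha*, stood above the *Reg3g*-led members for both genes. Neither gene passed without KO1134, and DESeq2 called 1 gene. No gene was called for airway-led, *Gp2*-led or *Saa*-led members by edgeR or by DESeq2, where 12, 12 and 13 of the 310 genes had an unadjusted p under 0.05 in edgeR.

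The patch of 156 touching members in KO1308 differed in makeup from the other 265 members of that section, which is given as a description since it was singled out after its size was seen. Airway genes led in 121 of its bins (77.6%), *Reg3g* in 19, *Gp2* in 4 and the *Saa* genes in 0, with 12 ties. It held 240730 UMIs, a median of 1509 a bin against 925 in the other members, and lay at a median of 266 µm from the edge against 355 µm. *Scgb3a1* had 532 CPM in the patch and 20.8 CPM in the other members, *Gp2* 989 and 281 CPM, and *Bpifa1* 3992 and 1660 CPM, while *Reg3g* had 2052 and 2118 CPM.

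Beyond the rule genes, the gastric and airway trefoil gene *Tff2* had 62.3 CPM in the patch and 6.93 CPM in the other members, *Muc5b* 145 and 20.8 CPM, *Foxa1* 91.4 and 20.8 CPM, and *Scgb3a2* 291 and 76.3 CPM. The ciliated list summed to 465 and 184 CPM. The *Saa* and *Reg3b* transcripts lay outside the patch, with *Saa3* at 0 and 76.3 CPM, *Saa1* at 4.15 and 86.7 CPM and *Reg3b* at 0 and 69.3 CPM. Medullary epithelial genes were similar, 2239 and 2409 CPM, as were MHC class II genes, 7643 and 8167 CPM, and dendritic cell genes were at 150 and 333 CPM. Without the patch, 336 genes were higher and 444 lower in members against all other bins, an alternative chosen after seeing the data.

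The KO and WT members differed in the order of several genes, with 2 KO sections and 1 WT section and no test. *Gp2*, *Bpifa1*, *Wfdc2* and *Cyp2f2* had higher CPM in members of both KO sections than in WT members, and *Saa1* and *Saa3* lower. These genes chose the members, so their order is a description. For *Cyp2f2* the WT interval (113 to 346 CPM) overlapped those of KO1134 (259 to 478) and KO1308 (247 to 341). The WT interval of *Wfdc2* (215 to 509) overlapped that of KO1134 (385 to 643). For *Gp2*, *Bpifa1*, *Saa1* and *Saa3* the WT interval lay apart from both KO intervals. Over all kept bins, which the rule did not choose, *Gp2* had 9.98, 33.4 and 2.02 CPM, *Reg3g* 27.2, 131 and 9.94 CPM, and *Bpifa1* 14.6, 126 and 2.21 CPM in KO1134, KO1308 and WT1101. *Saa1* had 4.21, 7.91 and 3.10 CPM and *Saa3* 7.80, 8.73 and 7.58 CPM over the same bins, so that the *Saa* genes were not lower in KO sections as a whole. The medullary epithelial list was also higher in other bins of the KO sections, 808 and 1222 CPM against 624 CPM in WT1101, and its part in these orders was not tested. *Trp53* in members rested on 3, 16 and 4 UMIs (24.3, 30.2 and 59.0 CPM). *Cdkn2a*, a tumour suppressor gene, had 2, 31 and 0 UMIs in members (16.2, 58.6 and 0 CPM) and 61.9, 50.1 and 0.936 CPM in other bins, and it did not pass the test between members and other bins (edgeR adjusted p = 0.78).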

How the data were processed

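UMI counts per gene and barcoded spot were deposited for 3 thymus sections, with the position of each spot. Per the study's methods, the authors made these counts from the reads with BSTMatrix and STAR, and the labels name GRCm38; the counts are whole numbers, not normalised or filtered, and replicates were not pooled. The authors' removal of folded areas was not repeated, and no cell type annotation was used. Spot names are slide positions, so sections share them by construction (244006, 345766 and 903622 names for the pairs KO1134 and KO1308, KO1134 and WT1101, and KO1308 and WT1101). No doublet caller was run on bins.

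The members and gene lists were chosen with earlier results of these data known. Spots were summed in 27 µm bins, and UMIs were summed per section and class. Sums were tested with edgeR 4.0.16 in R 4.3.3 (quasi-likelihood, TMM, filterByExpr, 2-sided, Benjamini-Hochberg, threshold 0.05) with section as the replicate block, because both classes come from the same animal and slide; the study's methods give no test for such bins. The samples' replicates are single animals, and the 9 rule genes were left out of the fits. Fold changes are in log2 with SE. Alternatives were DESeq2 1.42.0, no filter, no block, leaving out each section, other bin widths and limits, thinning to 500 UMIs, connected tissue of at least 200 bins, a mitochondrial limit of 20% and, added after seeing the data, leaving out the largest patch. Levels are CPM of summed UMIs with exact Poisson 95% intervals, which cover counting error only. Named were the rule genes, *Trp53*, *Cdkn2a*, list genes and, in each comparison, the 12 called genes that rose and the 8 that fell most among those with at least 30 UMIs in the higher class and the same direction in every section. *Ccl21a*, listed under 2 gene identifiers, was left out. Scripts were tested on simulated counts. Python 3.11.15 with numpy 2.4.6, scipy 1.17.1, pandas 2.3.3 and matplotlib 3.10.9 was used.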

Additional observations from a re-analysis of the deposited data

Results flagged for a closer look

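In 4 gene lists, members and other kept bins stood in opposite order in the KO and WT sections, a difference that was not tested. The tuft cell list had 429 CPM in members and 166 CPM in other bins of KO1134, and 336 and 257 CPM in KO1308, whereas WT1101 had 177 and 232 CPM. The WT value rested on 12 UMIs in 5 of the 10 listed genes (95% interval 91.4 to 309 CPM), so it did not stand apart from the level of other WT bins beyond counting error. Most of the WT level outside members came from *Lrmp*, at 132 CPM in other WT bins and 44.2 CPM in members. The B cell list had 291 CPM in members and 335 CPM in other bins of KO1134, 266 and 275 CPM in KO1308, and 192 and 80.6 CPM in WT1101, where members held 13 UMIs of the list (102 to 328 CPM). The adipocyte list had 542 CPM in members and 1150 CPM in other bins of KO1134, 202 and 2287 CPM in KO1308, and 118 and 107 CPM in WT1101, where members held 8 UMIs (50.9 to 232 CPM). The skeletal muscle list had 32.4 and 54.1 CPM in KO1134, 22.7 and 40.8 CPM in KO1308, and 44.2 and 43.1 CPM in WT1101, from 4, 12 and 3 UMIs in members. In WT1101 the intervals of the adipocyte and skeletal muscle lists in members held the level of the other bins. So did those of the B cell list in KO1134 (204 to 403 CPM) and KO1308 (224 to 314 CPM), and of skeletal muscle in KO1134 (8.82 to 82.9 CPM).

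The 9 rule genes also had transcripts in bins that did not pass the limits on genes and mitochondrial UMIs. In KO1308 such bins held 770 UMIs of the 9 genes, or 292 CPM, above the level in WT1101 (81.1 CPM, 63.8 to 102). These bins had a median of 188 UMIs in KO1308 and 226 in WT1101.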

How the results depend on the processing

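The p-values rest on 3 sections, of which 1 is WT, and leaving out any section lost calls; rare genes rest on few UMIs, and a count of 0 in WT members allows up to 44.2 CPM. No called named or listed gene changed sign in the alternatives that tested it. Against all other bins, the 330 higher and 271 lower genes became 308 and 55 with DESeq2, 568 and 505 at 2 UMIs and 0.2%, 193 and 79 at 5 UMIs and 0.5%, and 48 and 9 after thinning to 500 UMIs. The lower genes numbered 167 in bins of 50 µm and 444 without the largest patch, chosen after seeing the data. Leaving out 1 section gave 141 to 246 higher and 52 to 259 lower genes. Against near bins, the 88 and 5 genes became 42 and 0 with DESeq2, 44 and 2 at 5 UMIs and 0.5%, and 12 and 2 after thinning, with 9 lower genes without the count filter, 10 in bins of 20 µm and 8 without the patch, and 58 to 72 higher and 3 to 9 lower genes when 1 section was left out. Against medullary epithelial bins, the 86 and 22 genes became 39 and 2 with DESeq2, 38 genes were lower without the count filter, and leaving out 1 section gave 41 to 99 higher and 6 to 33 lower genes. Both classes of a section come from the same animal, so the replicate block is part of the main design; with no replicate block, the higher and lower genes numbered 102 and 0 against all other bins, 1 and 0 against near bins and 12 and 0 against medullary epithelial bins, *Reg3g*-led members had 0 called genes, and *Bpifa1* in bins chosen by the other 8 genes had a log2 fold change of 4.45 (adjusted p = 0.053). Among the other rule genes, *Saa1* (3.94, adjusted p = 0.061) and *Saa3* (3.94, adjusted p = 0.073) did not pass with DESeq2. Without KO1308 *Scgb3a1* was at 4.28 (adjusted p = 0.53), and without KO1134 *Clca3a2* was at 2.04 (adjusted p = 0.12). Over the sections left out in turn, *Scgb3a1* ranged from 4.28 to 5.93 and *Clca3a2* from 1.93 to 3.41. Among leading groups, airway-led members had 1 gene called without the count filter, *Gp2*-led members had 0 to 2 and *Reg3g*-led members 0 to 3 when 1 section was left out, and DESeq2 called 1 for *Reg3g*. The share of members in KO1134, KO1308 and WT1101 was 0.273%, 1.60% and 0.185% in bins of 50 µm, 0.141%, 1.02% and 0.0880% at 5 UMIs and 0.5%, and 0.913%, 4.82% and 0.517% at 2 UMIs and 0.2%. It was 0.473%, 2.39% and 0.168% in bins of 20 µm, and 0.236%, 1.68% and 0.148% after thinning. Connected tissue gave 0.466%, 2.60% and 0.221%, and a mitochondrial limit of 20% gave 0.4725%, 2.465% and 0.22%. The sections kept the same order throughout. Of the 27 lists, 15 were higher and 6 lower in members of every section, 11 and 6 at 5 UMIs and 0.5%, 12 and 5 after thinning and 14 and 5 in bins of 20 µm, with 15 and 5 or 6 under the others. Of the 80 called named or listed genes against all other bins, 60 stayed called with DESeq2, 17 of the 63 still tested after thinning, 47 of 78 without KO1134, 48 of 78 without KO1308 and 62 of 80 without WT1101. The causes of these changes were not tested.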

Other observations

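Transcripts of the rule genes met in the same bins in different pairings. In KO1134, *Gp2* shared 15 of its 23 member bins with *Cyp2f2* and 15 with *Wfdc2*, but 4 with *Bpifa1* and 0 with *Saa1*, although *Bpifa1* was found in 21 bins. *Cyp2f2* and *Wfdc2* met in 15 bins, of 21 with *Cyp2f2* and 24 with *Wfdc2*. In KO1308, *Gp2* met *Wfdc2* in 97 of its 138 bins and *Bpifa1* in 87, and *Scgb3a1* met *Wfdc2* in 42 of its 51 bins and *Gp2* in 34. In WT1101, *Gp2* met *Wfdc2* in 6 of 9 bins, *Saa1* met *Saa3* in 12 of 17 bins, and *Reg3g* met *Saa3* in 17 of 35 bins, which is 17 of the 32 bins with *Saa3*. In KO1308, *Reg3g* met *Saa3* in 8 bins, of 292 with *Reg3g* and 16 with *Saa3*. Bins were chosen for holding these genes, so the pairings are a description of the members and have no test.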
